A study of Mus musculus with 9 samples.

Results

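This is a comparison of sorted brain microglia that carried the R47H variant of human TREM2 with microglia that carried no TREM2 at all. It rests on 6 of the 9 arrays of the series, 3 from mice labelled R47H and 3 from mice labelled KO, chosen by their titles. Each array held the microglia of 1 mouse, taken as cells positive for CD45 and CD11b from brains of animals 8.5 months old. All mice of both groups shared the 5XFAD transgenes, which cause amyloid plaques, and a deficiency of the mouse Trem2 gene. The R47H mice had human TREM2 with R47H added to that background, and the KO mice had no human TREM2. The remaining 3 arrays came from mice with the common variant of human TREM2 (CV) and are used here for the shared estimate of spread and for the comparison of R47H with CV. Mouse 1 of each genotype was female, and mice 2 and 3 were male. The labels give neither the promoter that drives the human transgenes nor the number of founder lines, so a genotype may stand for 1 line.

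TREM2 is a surface receptor of microglia that binds lipids, lipoproteins and amyloid and signals through the adaptor Tyrobp. In mouse models of amyloid disease, microglia around plaques lose homeostatic genes and gain a disease-associated (DAM) programme of lipid handling, lysosomal and growth factor genes, and the later stage of that programme is known to require TREM2. R47H changes an arginine in the ligand-binding domain and is associated with a higher risk of Alzheimer's disease. Comparing R47H with KO asks which part of the TREM2-linked expression pattern is present when the receptor carries R47H.

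All values below are log2 expression as deposited, and all differences are log2 differences, given with the standard error (SE) of a limma model over all 9 arrays with terms for genotype and sex. Of 19938 genes with a probe set that names 1 gene, 10795 reached the median of all probe sets (5.31) and were tested. A gene is said to have risen or fallen only at a Benjamini-Hochberg adjusted p under 0.05. The arrays had medians of 5.28 to 5.35 and correlated at 0.981 to 0.990. The mouse Trem2 probe set (10445781) read 7.10, 7.19 and 7.19 in KO and 7.31, 7.26 and 7.28 in R47H. Whether it detects the altered mouse gene or the human transgene is not known here, so it checks no label. Tyrobp, the adaptor, read 12.56 to 12.70 in KO and 12.66 to 12.79 in R47H (0.08 ± 0.07, limma adjusted p = 0.955). Microglial identity genes were present in all 6 mice: P2ry12, an ADP receptor of resting microglia, lay between 11.12 and 11.38, and Cx3cr1, the fractalkine receptor, between 12.30 and 12.43. Of the cells that the gate could also hold, neutrophils varied most. Markers of neutrophils averaged 5.35, 5.75 and 8.54 in KO mice 1, 2 and 3 and ran from 5.90 to 6.83 with R47H, so KO mouse 3 stood apart from its group. The CV mice, at 7.75 to 8.60, lay near KO mouse 3 and above every R47H mouse, and their monocyte markers, at 6.58 to 6.99, also exceeded those of the R47H mice, at 5.49 to 5.70. Results against CV therefore stand beside a difference in these markers: 86 of 10795 genes (0.797%) were called in R47H minus CV, and 9 with the neutrophil score of each mouse as a covariate, Atp6v0d2, Gpnmb and S100b among them. With that score the median SE of R47H minus CV grew from 0.0929 to 0.131. A call could therefore be lost while the difference stayed as large.

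With R47H, 7 genes rose (0.0648% of those tested) and 2 fell (0.0185%), which makes 9 of 10795 genes or 0.0834% (limma, adjusted p under 0.05). At an unadjusted p under 0.05, 381 genes lay higher (3.53%) and 232 lower (2.15%), together 5.68% of those tested. The groups did not overlap for 767 genes (7.11%). The genes that rose were Atp6v0d2 and Gpnmb of the lysosome, Fabp3 of fatty acid transport, the growth factor Igf1, the prion protein gene Prnp, and Ermn and Sez6l2, which are known from oligodendrocytes and neurons. The genes that fell were Arnt and I830077J02Rik.

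Atp6v0d2 (probe set 10511779) encodes an inducible d subunit of the vacuolar proton pump, which acidifies lysosomes. It read 4.93, 4.13 and 4.45 in KO mice 1 to 3 and 6.37, 6.37 and 6.22 in R47H mice 1 to 3. All R47H mice lay above all KO mice, and the R47H mice differed among themselves by far less than the step between the groups. The difference was 1.82 ± 0.14, a 3.52-fold rise (limma adjusted p = 0.00732). With the common variant the values were 9.34, 9.13 and 8.79, so R47H lay below CV by a difference of -2.77 ± 0.14 (adjusted p = 0.000208). The KO values all lay below 5.31, the median of all probe sets, and no detection calls were used.

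Gpnmb (10538187), a transmembrane glycoprotein of phagocytic and lipid-laden macrophages, had the largest fold of the called genes. It read 7.47, 6.89 and 5.74 in KO, 10.04, 9.16 and 9.14 in R47H, and 11.24, 10.86 and 10.97 in CV. The 3 genotypes formed 3 separate levels with no overlap. R47H was 6.72-fold above KO (2.75 ± 0.27, limma adjusted p = 0.0143) and below CV by a difference of -1.57 ± 0.27 (adjusted p = 0.0426). KO mouse 3, the mouse with the high neutrophil markers, had the lowest Gpnmb value, and without it the difference was 2.37 (adjusted p = 0.00152).

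Igf1 (10365559), a growth factor that DAM secrete, read 8.04, 7.60 and 7.52 in KO and 9.06, 8.35 and 8.27 in R47H. The female, mouse 1, was the highest of each group, and the lowest R47H mouse lay above the highest KO mouse. Igf1 rose 1.79-fold (0.84 ± 0.09, limma adjusted p = 0.0221). The CV mice read 8.66, 8.19 and 8.37, and R47H minus CV was 0.15 ± 0.09 (adjusted p = 0.564).

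Fabp3 (10371502), a cytosolic carrier of fatty acids, read 7.05, 6.64 and 6.41 in KO and 8.15, 7.39 and 7.42 in R47H. The groups were separate, with mouse 1 again the highest in both. Fabp3 rose 1.94-fold (0.95 ± 0.10, limma adjusted p = 0.0221), and its other probe set (10508614) gave a difference of 1.06. The values in CV were 7.96, 7.27 and 7.58, and R47H minus CV was 0.05 ± 0.10 (adjusted p = 0.88).

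Prnp (10476314), which encodes the cellular prion protein, a membrane-anchored protein able to bind amyloid oligomers, read 5.74, 5.17 and 5.24 in KO and 6.41, 6.03 and 5.95 in R47H. Each R47H mouse exceeded each KO mouse. The rise was 1.68-fold (0.75 ± 0.07, limma adjusted p = 0.0112). The CV mice read 6.10, 5.73 and 5.74, with a mean between those of the other groups, and R47H minus CV was 0.27 ± 0.07 (adjusted p = 0.148).

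Arnt (10494238) encodes the partner with which hypoxia-inducible factors and the aryl hydrocarbon receptor bind DNA. It read 8.04, 8.25 and 8.13 in KO, 7.33, 7.59 and 7.31 in R47H, and 8.04, 8.15 and 8.17 in CV. R47H mice alone were low, and the KO and CV values overlapped. Arnt fell by 0.73 on the log2 scale against KO (SE 0.08, limma adjusted p = 0.0221), and the difference from CV was -0.71 ± 0.08 (adjusted p = 0.0119). Arnt lost the call against CV with the neutrophil score (-0.80, limma adjusted p = 0.115). It kept that call in 5 of the 9 fits that left out 1 array. The relatives of Arnt differed less. Arnt2, a paralogue, stood at 0.23 ± 0.12 (adjusted p = 0.907), and Hif1a, the oxygen-regulated partner, at 0.03 ± 0.07 (adjusted p = 0.981). Of 9 tested genes of this family and its coactivators, Arnt was the 1 called, against 0.0834% of all genes. Of 13 tested targets of hypoxia and of the aryl hydrocarbon receptor 0 were called. Among these targets 1 had an unadjusted p under 0.05 (limma), against 5.68% of all genes. That target was Ndrg1, a stress-responsive gene that myelinating glia also express, with KO values of 6.09, 6.02 and 5.64 and R47H values of 6.63, 6.51 and 6.83.

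I830077J02Rik (10500982) read 9.15, 9.26 and 9.47 in KO, 8.63, 8.46 and 8.49 in R47H and 9.01 ± 0.04 (SD, n = 3) in CV. The R47H mice were the lowest, with no overlap. The gene fell by 0.77 against KO (SE 0.09, limma adjusted p = 0.0301), and the difference from CV was -0.48 ± 0.09 (adjusted p = 0.0707). Arnt and I830077J02Rik, the 2 genes that fell, both lie on chromosome 3, with promoter stretches at chr3:95434140-95434389 and chr3:105932665-105932914. Among the genes that rose, Atp6v0d2 and Fabp3 share chromosome 4, and Prnp and Ermn share chromosome 2. Chromosome 3 also holds genes with positive differences, such as Cldn11 and Car2. Whether position had a part in these differences was not tested.

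Ermn (10482795), a cytoskeletal protein of myelinating oligodendrocytes, read 5.40, 5.01 and 4.75 in KO, 6.91, 6.63 and 6.47 in R47H, and 4.85, 5.36 and 4.78 in CV. Sez6l2 (10557535), a membrane protein described mainly in neurons, read 5.77, 5.49 and 5.26 in KO, 6.95, 6.36 and 6.33 in R47H, and 5.42, 5.51 and 5.25 in CV. For both genes every R47H mouse lay above every mouse of the other genotypes. Ermn averaged 5.05 in KO and 5.00 in CV, below 5.31, the median of all probe sets. It therefore reached the level for a test through its R47H values, and no detection calls were used. Ermn rose 3.07-fold (1.62 ± 0.19, limma adjusted p = 0.0221) and Sez6l2 2.06-fold (1.04 ± 0.13, adjusted p = 0.0301). Both also lay above CV, by 1.67 ± 0.19 and 1.15 ± 0.13 (adjusted p = 0.00812 for each). With the neutrophil score these differences were 1.44 and 1.01, and neither was called (limma adjusted p = 0.232 for each). Each kept the call against CV in 7 of the 9 fits that left out 1 array.

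**Figure D1:**
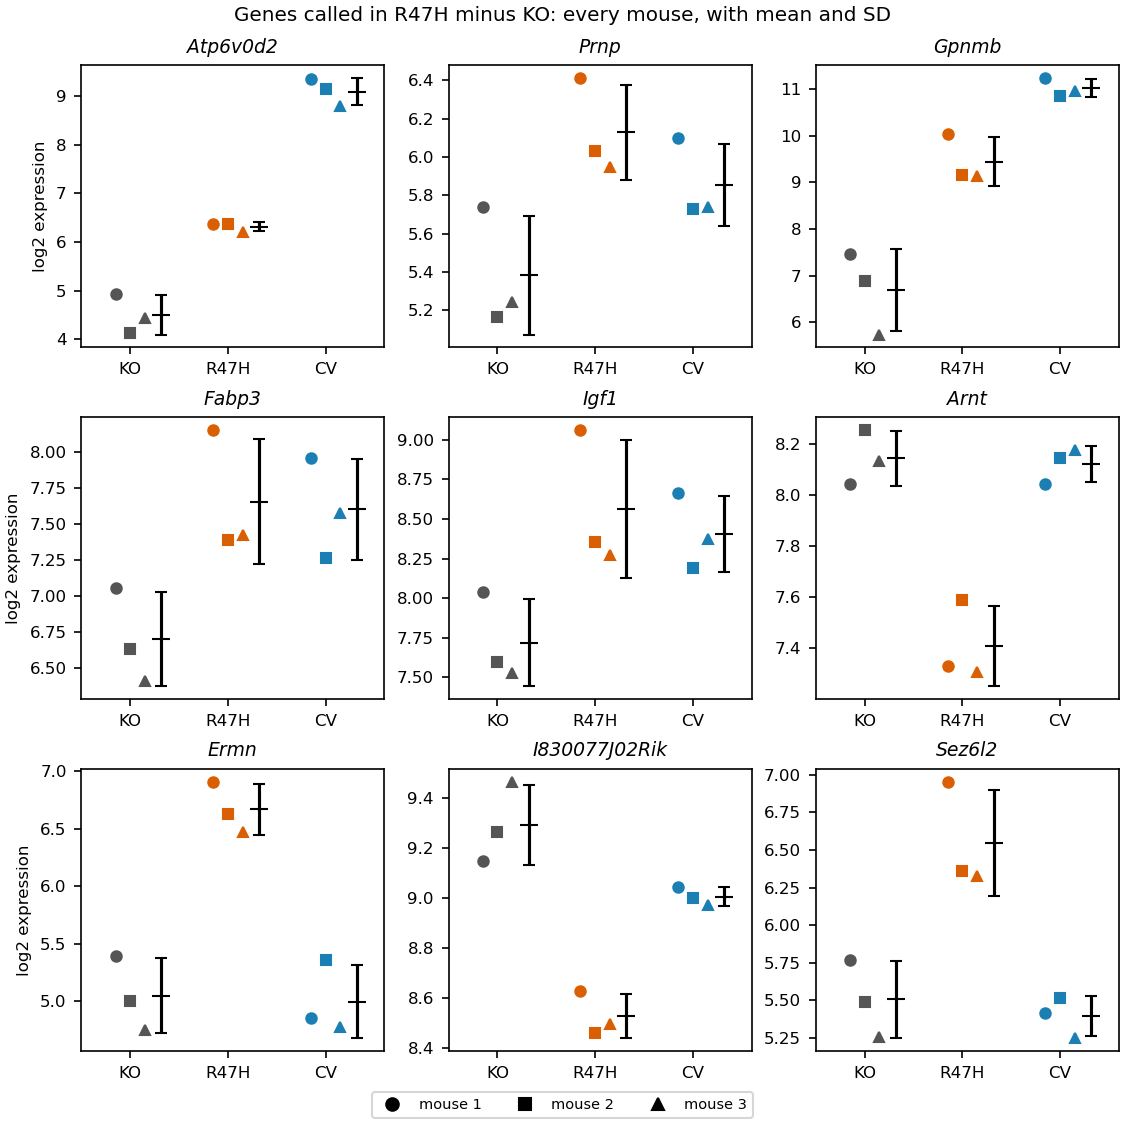
Log2 expression (y axis) of the 9 called genes in each mouse of the KO, R47H and CV groups, with 1 panel per gene and its own scale, 1 symbol per mouse number, and the mean with SD (n = 3) beside the points. Gpnmb and Atp6v0d2 show 3 separate levels, Igf1 and Fabp3 lie at overlapping levels in R47H and CV, and Arnt, Ermn and Sez6l2 set R47H apart from both other groups.

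The calls were few and depended on single mice. The model called 1, 5 and 2 genes when KO mouse 1, 2 or 3 was left out, and 1, 3 and 0 when the R47H mouse of that number was (limma; 534 genes at an unadjusted p under 0.05 without R47H mouse 3). The fit also draws on the CV mice, and without CV mouse 3 it called 5 genes. All 9 genes kept their direction in every alternative in which they were fitted. The differences of Atp6v0d2 ran from 1.68 to 1.96, those of Prnp from 0.71 to 0.79 and those of Arnt from -0.81 to -0.65. Fabp3 ran from 0.88 to 1.03 and Igf1 from 0.74 to 0.90. Other ranges were wider: Gpnmb 1.41 to 3.00, Ermn 0.68 to 1.77, Sez6l2 0.46 to 1.10 and I830077J02Rik -0.87 to -0.50. No source used here says that the mice came from separate litters, so the p-values measure the spread between these mice.

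The stretch upstream of the start site is shown for 3 called genes because it bears on factors named in this comparison: Arnt itself, and Gpnmb and Fabp3 as genes of lysosomal and lipid handling. RefSeq (GRCm38.p6) gave a promoter for 7 of the 9 called genes, with Atp6v0d2 and Sez6l2 unmatched. The 250 bases before the start site are printed 5′ to 3′ in the direction of the gene, at chr6:49036268-49036517 for Gpnmb, chr4:130308488-130308737 for Fabp3 and chr3:95434140-95434389 for Arnt, all on the plus strand. Capitals mark TCATGTG, a form of the site bound by the MiT/TFE factors, which drive lysosomal genes, or GCGTG, the core that Arnt binds with the aryl hydrocarbon receptor, and the Gpnmb stretch held neither.
Gpnmb: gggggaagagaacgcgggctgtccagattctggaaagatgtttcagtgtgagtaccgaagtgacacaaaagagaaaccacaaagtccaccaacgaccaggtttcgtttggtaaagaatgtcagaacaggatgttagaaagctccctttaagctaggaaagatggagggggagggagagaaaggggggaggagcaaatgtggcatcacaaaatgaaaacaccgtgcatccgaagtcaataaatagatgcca
Fabp3: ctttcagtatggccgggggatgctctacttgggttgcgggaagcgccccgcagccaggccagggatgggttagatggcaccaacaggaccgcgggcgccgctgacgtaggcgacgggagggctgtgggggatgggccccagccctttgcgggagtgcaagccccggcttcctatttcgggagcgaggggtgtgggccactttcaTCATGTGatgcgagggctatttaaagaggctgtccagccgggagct
Arnt: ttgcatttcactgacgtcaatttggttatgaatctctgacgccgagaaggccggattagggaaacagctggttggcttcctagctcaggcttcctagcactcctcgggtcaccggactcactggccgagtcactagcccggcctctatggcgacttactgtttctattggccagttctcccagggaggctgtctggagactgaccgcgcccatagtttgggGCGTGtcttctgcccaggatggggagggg
On either strand, CACGTG, the E-box of lysosomal gene promoters, was found in 0 of the 7 stretches, against 8.51% of 11054 stretches of tested genes. TCACGTGA, its longer form, which contains CACGTG, is present in 1.52% of them. TCATGTG, searched after the values were seen, was found in Fabp3 alone, against 1.76% of stretches. GCGTG was found in Arnt, Igf1 and Prnp, against 44% of stretches. ACGTG, which overlaps CACGTG and is, like GCGTG, a core form of the hypoxia-inducible factor site, was found in 0 of the 7, against 21.8%. These matches describe letters in short windows and show no binding.

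The genes that microglia induce in the TREM2-dependent DAM stage had higher means with R47H in all tested members. The list came from published mouse models. Its members were chosen with earlier results of these data known, so the counts below are a description and no test. Of the 28 members on the list 26 were measured and tested. Gpnmb and Igf1 rose and 0 fell, against 0.0834% of all genes called, while all 26 differences were positive, against 49.6% of all tested genes. The median was 0.34, against -0.0011 over all genes tested. The groups did not overlap for 10 of the 26, against 7.11% of all genes, and 14 had an unadjusted p under 0.05, against 5.68%.

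Of the lipid-handling members, Lpl, the lipase that frees fatty acids from lipoproteins, read 8.05, 7.78 and 7.76 in KO and 8.98, 9.31 and 8.79 in R47H. Its groups were separate and its difference was 1.16 ± 0.16, just short of the threshold (limma adjusted p = 0.0535). Ch25h, which makes 25-hydroxycholesterol, read 6.49, 5.64 and 6.16 in KO and 7.45, 6.78 and 6.81 in R47H (0.91 ± 0.17, adjusted p = 0.136). Fabp5, another fatty acid carrier, overlapped between groups (0.45 ± 0.15, adjusted p = 0.689), because KO mouse 1 at 8.77 exceeded R47H mice 2 and 3 at 8.41 and 8.44.

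Among surface proteins of the list, Itgax, the integrin chain CD11c, averaged 7.43 ± 0.59 in KO and 8.35 ± 0.11 in R47H (SD, n = 3 each; difference 0.92 ± 0.16, limma adjusted p = 0.0926). All R47H mice lay above all KO mice, but KO mouse 1, at 8.11, came near them. Axl, a receptor for dying cells, and Clec7a, a lectin receptor, stood at 0.59 ± 0.18 and 0.47 ± 0.15 (adjusted p = 0.591 and 0.631), with overlapping groups. Cybb, the catalytic chain of the phagocyte oxidase, read 7.96 to 9.02 in KO and 9.07 to 9.14 in R47H (0.60 ± 0.21, adjusted p = 0.73).

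Mamdc2, a member of the list with a MAM domain, averaged 5.18 ± 0.21 in KO and 5.85 ± 0.44 in R47H (SD, n = 3 each; difference 0.67 ± 0.10, limma adjusted p = 0.0723), with separate groups. Its KO mean lay below 5.31, the median of all probe sets. Cst7, a cysteine protease inhibitor, stood at 0.37 ± 0.10 (limma adjusted p = 0.421). The tetraspanins Cd9 and Cd63 stood at 0.10 ± 0.08 and 0.09 ± 0.09, and the lysosomal glycoprotein Cd68 at 0.07 ± 0.06. Against CV, 3 members were called lower in R47H: Gpnmb, Itgax (-0.96 ± 0.16, adjusted p = 0.0363) and Lgals3, galectin-3 (-0.72 ± 0.12, adjusted p = 0.0411), against 0.797% of all genes called. With the neutrophil score the differences were -2.33, -0.97 and -0.79 and Gpnmb alone kept its call (adjusted p = 0.00724), and each of the 3 kept it in 2 or 3 of the 9 fits that left out 1 array. With mouse number as a block Lgals3 lost its call (adjusted p = 0.0544). Lgals3 read 8.44, 8.45 and 8.18 in KO, 9.11, 8.46 and 8.83 in R47H, and 9.74, 9.36 and 9.47 in CV.

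**Figure D2:**
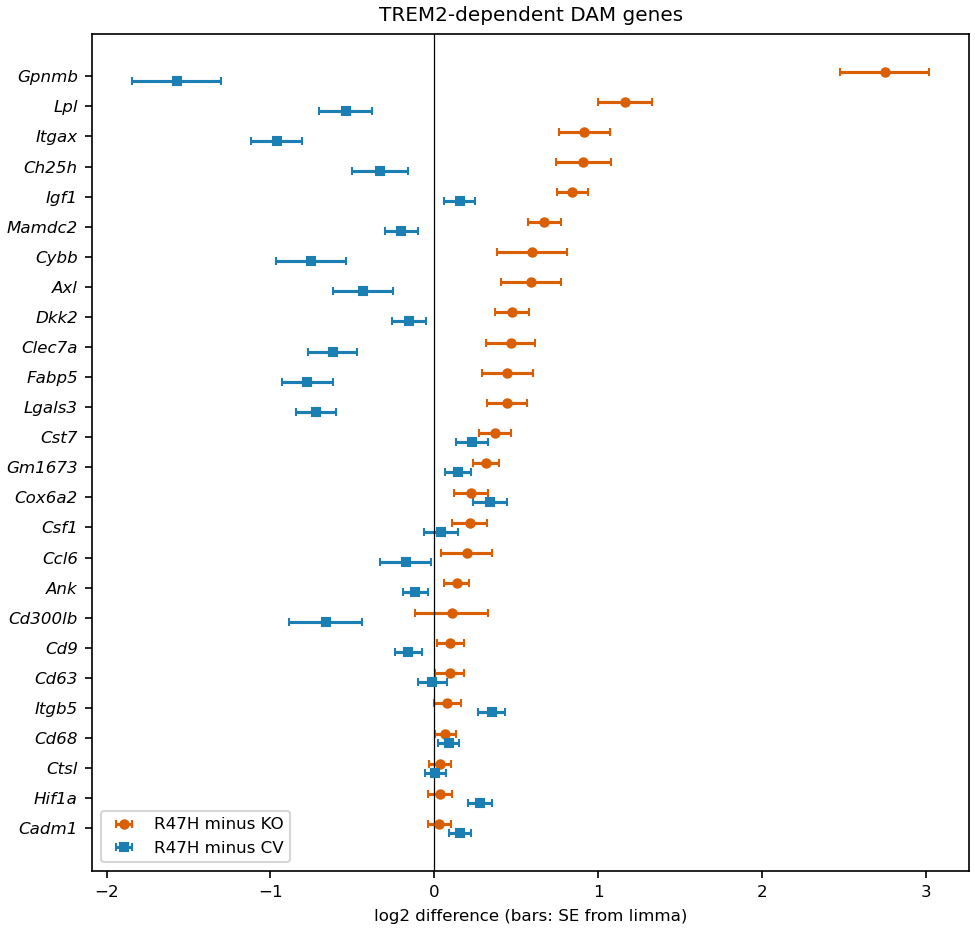
Log2 differences (x axis) of the 26 tested TREM2-dependent DAM genes for R47H minus KO (circles) and R47H minus CV (squares), with bars for the SE from limma. All 26 circles lie above 0, from 0.03 to 2.75, while the squares lie on both sides, with Gpnmb, Itgax and Lgals3 among the lowest.

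Genes of the earlier, TREM2-independent DAM stage showed no call among 11 tested (limma). Of these, 1 (Cd52) had an unadjusted p under 0.05, against 5.68% of all genes. Cd52, a small surface glycoprotein, stood at 0.36 ± 0.14 and Fth1, the ferritin heavy chain, at 0.12 ± 0.07. Homeostatic genes had 0 calls among 22 (limma, 2 at an unadjusted p under 0.05, against 5.68% of all genes). Of the 22 differences 19 were negative, against 5441 of 10795 over all genes. The median was -0.07, or -0.03 without KO mouse 3. The differences ran from -0.29 to 0.05. Crybb1, a crystallin of microglia, read 9.97, 9.99 and 9.80 in KO and 9.61, 9.47 and 9.81 in R47H (-0.29 ± 0.11, limma adjusted p = 0.763), so that R47H mouse 3 reached the KO range. The CV mice averaged 8.90 ± 0.13 (SD, n = 3), and Crybb1 was called higher in R47H than in CV (0.72 ± 0.11, adjusted p = 0.0284). Crybb1 lost that call with the neutrophil score (0.62, limma adjusted p = 0.494). It kept the call in 4 of the 9 fits that left out 1 array. Olfml3, an extracellular matrix protein of microglia, read 11.09 to 11.33 in KO and 10.91 to 10.99 in R47H (-0.23 ± 0.08, adjusted p = 0.671). The sensor and receptor genes P2ry12, Tmem119, Cx3cr1 and Csf1r differed by -0.05 ± 0.09, -0.12 ± 0.08, -0.03 ± 0.07 and 0.0022 ± 0.07.

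Of 17 tested subunits of the proton pump Atp6v0d2 was the 1 called, against 0.0834% of all genes. Of the 17 differences 11 were negative, against 5441 of 10795 over all genes. Its constitutive counterpart Atp6v0d1 read 8.51, 8.33 and 8.16 in KO and 8.12, 8.06 and 8.20 in R47H (-0.21 ± 0.09, limma adjusted p = 0.863). Of 28 lysosomal hydrolases and membrane proteins 0 were called and 0 had an unadjusted p under 0.05 (limma), with differences from -0.16 to 0.16. The MiT/TFE factors and their regulators had 0 calls among 8 (0 at an unadjusted p under 0.05). Fnip1, a regulator of Tfeb and Tfe3, stood at -0.16 ± 0.08 and Tfe3 itself at -0.08 ± 0.07.

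Among 18 tested genes of fatty acid uptake and storage, Fabp3 was the 1 called, against 0.0834% of all genes. At an unadjusted p under 0.05 (limma) lay 7, all 7 positive, against 3.53% of all genes for that direction. Of the 18 differences 10 were positive, against 49.6% of all genes, and the median was 0.08. Lpl, Ch25h and Fabp5 are on the DAM list as well. Scd1, the desaturase that makes oleate, read 5.65, 4.94 and 4.54 in KO, 6.64, 6.02 and 6.69 in R47H and 4.61, 4.89 and 4.92 in CV. Its means in KO and CV, 5.04 and 4.81, lay below 5.31, the median of all probe sets. Scd1 therefore reached the level for a test through its R47H values. Its groups were separate (1.41 ± 0.25, limma adjusted p = 0.124), and R47H lay above CV by 1.64 ± 0.25 (adjusted p = 0.0313). Scd1 lost the call against CV with the neutrophil score (1.31, limma adjusted p = 0.566). It kept the call in 3 of the 9 fits that left out 1 array. Scd2, its brain paralogue, stood at 0.45 ± 0.15 (adjusted p = 0.683). Both desaturases are also abundant in myelinating cells. Cholesterol synthesis had 0 calls among 15 (limma, 4 at an unadjusted p under 0.05, against 5.68% of all genes). Of the 15 differences 12 were positive, against 49.6% of all genes. The median was 0.18, or 0.10 without R47H mouse 2. Msmo1, a sterol oxidase, read 7.23, 7.39 and 7.10 in KO and 7.45, 7.98 and 7.69 in R47H (0.47 ± 0.13, adjusted p = 0.488). Abca1 and Abcg1, which export cholesterol, stood at -0.18 ± 0.11 and -0.31 ± 0.14 (adjusted p = 0.927 and 0.87), or at -0.06 and -0.13 without KO mouse 2.

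Immune lists gave no calls. All 23 tested interferon response genes were positive, against 49.6% of all genes, with 0 at an unadjusted p under 0.05 (limma), against 5.68%. Their mean deviation from the average of all arrays was 0.81 in R47H mouse 3, whereas R47H mouse 1 stood at 0.16 and R47H mouse 2 at -0.26. With R47H mouse 3 left out, the median difference of 0.28 became -0.03. Ifit2, an antiviral effector, read 7.28, 6.99 and 7.23 in KO and 7.64, 7.23 and 8.48 in R47H. Cxcl9, a chemokine induced by interferon-gamma, read 6.89, 5.71 and 6.99 in KO and 8.15, 7.37 and 8.15 in R47H (1.36 ± 0.37, limma adjusted p = 0.451). For Cxcl9 all R47H mice lay above all KO mice, R47H mouse 1 as much as mouse 3. Genes of antigen presentation by MHC class II had positive differences in 7 of 7 tested members, against 49.6% of all genes. The median was 0.39, with 0 members at an unadjusted p under 0.05 (limma). Leaving out KO mouse 2 gave 0.18 in place of that median, and leaving out KO mouse 3 gave 0.72. Tap1, the peptide transporter of class I, read 7.40, 7.11 and 7.04 in KO and 7.77, 7.37 and 7.70 in R47H (0.43 ± 0.10, adjusted p = 0.285), with R47H mouse 2 inside the KO range. Ptgs2, which makes prostaglandins, stood at 0.51 ± 0.16 (adjusted p = 0.601).

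**Figure D3:**
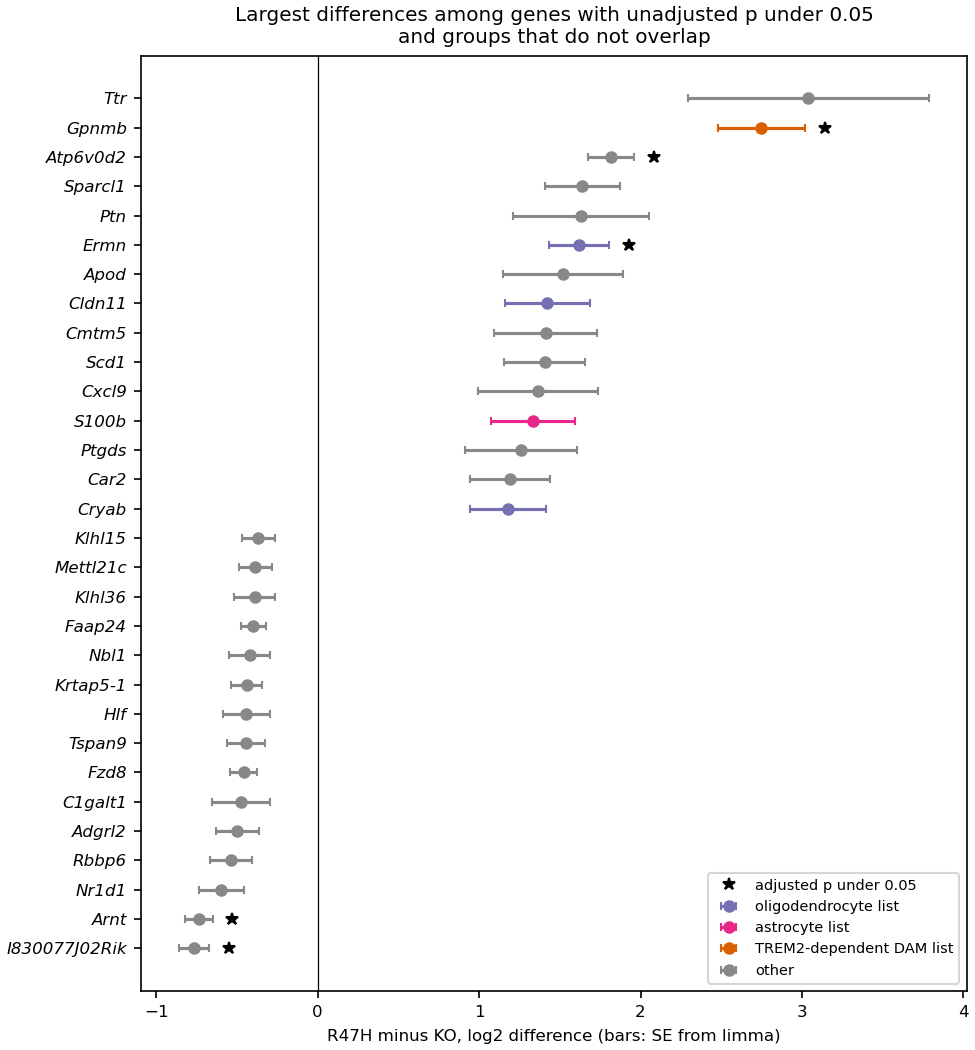
R47H minus KO as a log2 difference (x axis) with its SE for the 15 most positive and 15 most negative genes, predicted genes left out unless called, among those with an unadjusted p under 0.05 and no overlap of groups, coloured by gene list, with stars for adjusted p under 0.05. The positive side, from Ttr at 3.04 to Cryab at 1.18, holds many genes known from glia, and the negative side stays between -0.77 and -0.37.

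The largest positive differences included many genes known from cells other than microglia. Of the 372 genes with an unadjusted p under 0.05 and separate groups, 25 differed by at least 1, all of them higher in R47H. Ttr, transthyretin of the choroid plexus, read 6.03, 8.81 and 6.36 in KO and 10.07, 8.96 and 11.29 in R47H (3.04 ± 0.75, limma adjusted p = 0.347), and KO mouse 2 lay close to R47H mouse 2. The other ependymal and choroid markers differed little. Of 7 measured markers 3 were tested: Ttr, Rarres2 (0.10) and Ccdc153 (-0.02). The differences of those below the level needed for a test ran from -0.02 to 0.06. Sparcl1, a matrix protein of astrocytes, read 5.79, 5.61 and 4.90 in KO and 6.93, 6.87 and 7.41 in R47H (1.64 ± 0.23, adjusted p = 0.0535). Ptn, Apod, Cmtm5, Ptgds and Car2, which are known from astrocytes, oligodendrocytes or meninges, had differences from 1.63 ± 0.42 (Ptn) to 1.19 ± 0.25 (Car2), with adjusted p from 0.195 (Car2) to 0.451 (Ptgds).

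Oligodendrocyte markers had the highest median difference of the 39 gene lists, 0.93 over their tested members. Of 20 markers 18 were measured, and 5 of these lay below the level needed for a test. Over all 18 each difference was positive and the median was 0.97. Among the 13 tested, Ermn rose and 0 fell, against 0.0834% of all genes called. Averaged over the 18, the level was 6.37, 6.13 and 5.78 in KO, 7.19, 6.77 and 7.08 in R47H, and 5.88, 6.05 and 5.79 in CV, so every R47H mouse lay above every other mouse. Mobp, a myelin protein, averaged 6.23 ± 0.34 in KO and 7.28 ± 0.23 in R47H (SD, n = 3 each; difference 1.05 ± 0.16, limma adjusted p = 0.0796). Mag, a myelin adhesion molecule, read 6.62, 6.44 and 5.77 in KO and 7.38, 7.21 and 7.28 in R47H (1.01 ± 0.17, adjusted p = 0.0926). Mbp, a main protein of myelin, averaged 7.67 ± 0.44 in KO and 8.21 ± 0.27 in R47H (SD, n = 3 each), with KO mouse 1 just under R47H mouse 2. Against CV, 7 of the 13 tested markers were called higher in R47H, against 0.797% of all genes called, among them Mbp (1.14 ± 0.15, adjusted p = 0.0181) and Cldn11, the tight junction protein of myelin (1.53 ± 0.27, adjusted p = 0.044). With the neutrophil score Mbp stood at 0.74 (adjusted p = 0.193) and Cldn11 at 1.26 (adjusted p = 0.67), and they kept their calls in 3 and 2 of the 9 fits that left out 1 array. With mouse number as a block Cldn11 lost its call (adjusted p = 0.0568). Olig1, a factor of the oligodendrocyte lineage, read 5.59 to 6.22 in KO and 6.53 to 6.72 in R47H, whereas the precursor marker Pdgfra lay at 4.10 to 4.47 in all 6 mice.

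Astrocyte and neuronal markers behaved less uniformly. Of 13 measured astrocyte markers 10 had positive differences, at a median of 0.46. S100b, a calcium-binding protein of astrocytes that oligodendrocytes also express, read 7.13, 6.71 and 5.74 in KO and 7.90, 7.86 and 7.83 in R47H (1.33 ± 0.26, limma adjusted p = 0.144). Aldoc, the brain aldolase, averaged 5.70 ± 0.35 in KO and 6.69 ± 0.37 in R47H (SD, n = 3 each), with separate groups. Gfap, an astrocyte filament, read 5.24, 4.58 and 4.36 in KO and 5.80, 4.97 and 5.74 in R47H, and the water channel Aqp4 stayed between 4.38 and 4.54 in all 6. Over 15 neuronal markers the mean level was 4.44 to 4.53 in KO and 4.50 to 4.58 in R47H. Snap25, a synaptic vesicle fusion protein, lay at 5.01 to 5.10 and 5.03 to 5.34. Sez6l2 was placed on that list with its rise already known.

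**Figure D4:**
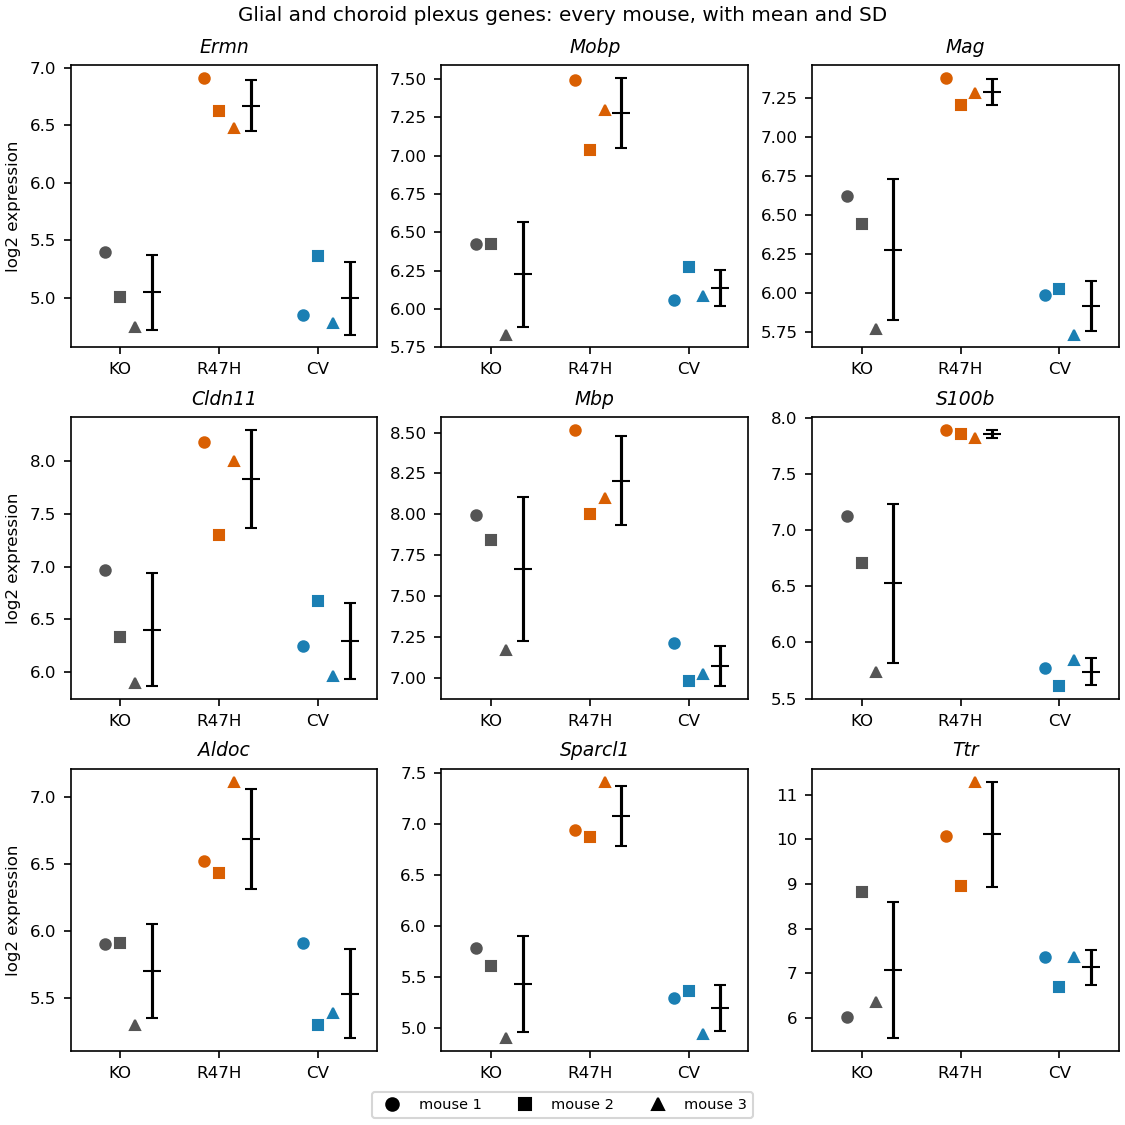
Log2 expression (y axis) of 5 oligodendrocyte markers, 2 astrocyte markers, Sparcl1 and Ttr in each mouse, with 1 panel per gene, 1 symbol per mouse number and the mean with SD (n = 3). The R47H mice are highest in all 9 panels, KO mouse 3 is low among the KO mice except for Ttr, and the CV mice lie near or below the KO mice.

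In bulk RNA, a different number of such cells and a different amount of RNA per cell cannot be told apart. With the oligodendrocyte score of each mouse as a covariate the model called 0 genes (limma; 409 at an unadjusted p under 0.05), and the median SE grew from 0.0929 to 0.231, because the score follows genotype. The differences of Atp6v0d2, Prnp, Fabp3 and Igf1 were then 1.81, 0.76, 0.94 and 0.85, close to those without the covariate. Arnt stood at -0.66, Gpnmb at 1.41, Ermn, itself a member of the score, at 0.68, Sez6l2 at 0.46 and I830077J02Rik at -0.50. Of genes without a call, Scd1 stood at 0.10, Ndrg1 at -0.0038 and Nr1d1 at -0.06, whereas Lpl and Ch25h stood at 1.76 and 1.61. With this covariate the DAM median was 0.23, with 24 of 26 differences positive, and the homeostatic median was 0.03. Neutrophil markers, by contrast, had 0 of 10 called and 0 at an unadjusted p under 0.05 in R47H minus KO. S100a8, a calprotectin subunit, read 7.84, 9.37 and 12.74 in KO and 9.22, 10.53 and 11.28 in R47H. The neutrophil median of -0.23 became 1.04 once KO mouse 3 was left out and -0.91 once KO mouse 2 was, and with the neutrophil score as a covariate 15 genes were called, among them all 9.

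**Figure D5:**
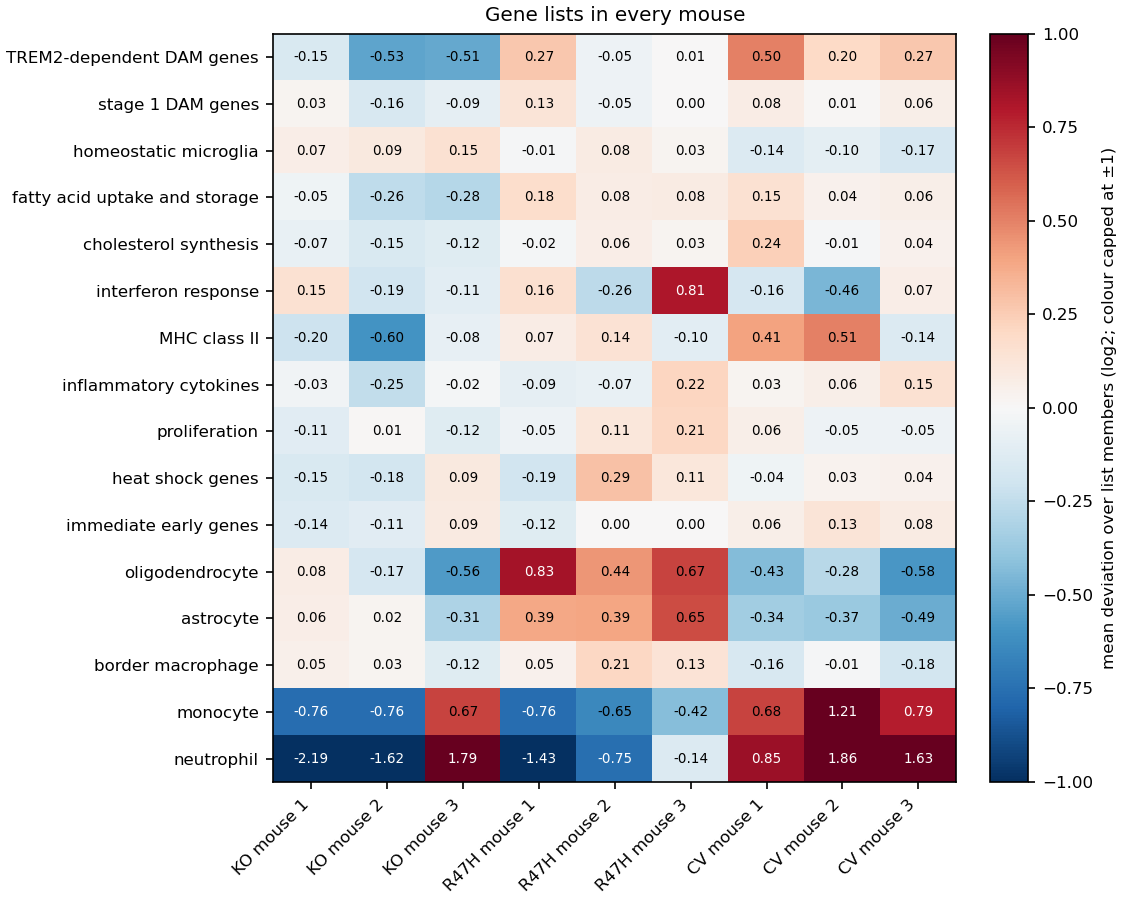
Mean deviation of 16 gene lists (rows) in each of the 9 mice (columns) from their mean over all arrays, in log2 units over tested members, with colours capped at 1 in either direction. R47H mice are high for oligodendrocyte and astrocyte markers, R47H mouse 3 is high for interferon genes, and KO mouse 3 and all CV mice are high for neutrophil and monocyte markers.

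Genes that lay lower with R47H beyond the 2 called ones had smaller steps. Nr1d1, the circadian repressor Rev-erb alpha, read 9.26, 9.41 and 9.68 in KO and 8.37, 9.17 and 9.03 in R47H (-0.60 ± 0.14, limma adjusted p = 0.307), with R47H mouse 1 the lowest. Fzd8, a Wnt receptor, read 6.24, 6.15 and 5.93 in KO and 5.74, 5.52 and 5.68 in R47H (-0.46 ± 0.08, adjusted p = 0.136). Rbbp6, a ubiquitin ligase, stood at -0.54 ± 0.13 on the probe set used and at -0.13 and -0.12 on its 2 others, and the 8 probe sets of Adgrl2, an adhesion receptor, ran from -0.58 to 0.38. Of 13 tested proliferation genes 0 were called (limma). Of these, 4 had an unadjusted p under 0.05, all positive, against 3.53% of all genes for that direction. Stmn1, a microtubule regulator, read 8.70, 8.78 and 8.56 in KO and 8.94, 8.95 and 9.31 in R47H (0.39 ± 0.12, adjusted p = 0.564).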

How the data were processed

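Per the labels' protocols, brains were perfused and dissociated, microglia were sorted into lysis buffer, and biotin-labelled material was made from 2 ng of total RNA per mouse. The authors deposited a table of log2 expression covering 35556 probe sets. Its scale was read from the values; background correction and normalization were not stated in the sources used. Gene names came from GEO's annotation of the array, in which 21789 probe sets had 1 gene symbol, 1621 several and 12146 none. Each gene was represented by its probe set with the highest mean over 9 arrays (999 genes had several). No detection calls were used, so a low value may be background.

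R 4.3.3 and limma 3.58.1 (lmFit, eBayes) fitted all 9 arrays with genotype and sex, leaving 5 residual degrees of freedom plus 3.73 prior ones (median residual SD 0.12). The number of arrays limits the precision. Tests are two-sided with Benjamini-Hochberg adjustment over 10795 genes. The model was tested on simulated data. The 39 gene lists were summarised by counts and medians, without tests. A mouse's deviation for a list is the mean over tested members of the value minus its mean over all arrays.

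Named genes were Trem2, Tyrobp, the called genes, the 15 largest differences in each direction with an unadjusted p under 0.05 and separate groups, the 5 just above the threshold, and up to 4 members of each list with the smallest p. Predicted genes were left out unless called. Genes outside this rule (P2ry12, Cx3cr1, Csf1r, Hif1a, Itgax, Ch25h, Axl, Fabp5, Cybb, Cst7, Cd9, Cd63, Cd68, Lgals3, Mbp, Scd2, Gfap, Aqp4, Snap25 and Pdgfra, where no list's choice took them) were added as known members of their lists after their values were seen. Mrc1 and Tfeb also lie outside this rule, and Cry1, Cry2, Nfil3, Arntl and Clock were named from the clock list. The members and lists were chosen with earlier results of these data known.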

Additional observations from a re-analysis of the deposited data

How the results depend on the processing

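The count of genes called in R47H minus KO was 9, and within 1.5 times of that (6 to 12) under the stricter filter, no filter, the mean over probe sets, repeated quantile normalization, centring on the median and the replicate block. The genes changed under the filters. With the stricter filter 5 of 6 calls were among the 9, and Atp6v0d2, Prnp, Ermn and Sez6l2 lay too low to be tested. With no filter 7 of 8 calls were among the 9. The count was 3 without sex (Atp6v0d2, I830077J02Rik and Ermn) and 1 with the 6 R47H and KO arrays alone (Ermn). Testing all probe sets one by one gave 0 (limma, 1743 at an unadjusted p under 0.05). The count was 15 with trend and robust options, 15 with the neutrophil score and 0 with the oligodendrocyte score. Leaving out 1 array gave 0 to 7, and leaving out KO mouse 3 and R47H mouse 3 together, an alternative chosen after seeing the data, gave 1. For R47H minus CV, 86 genes became 48 with no filter, 9 with the stricter filter, 5 with all probe sets, 9 with the neutrophil score and 0 with the oligodendrocyte score (limma), and 9 to 132 without 1 array. The labels tie no mouse number to a litter or day, and same-numbered KO and R47H mice deviated from their group means with correlations of 0.362, 0.00094 and 0.147, so these were not treated as pairs. For R47H and CV the correlations were 0.327, 0.196 and 0.197, so their numbers may pair mice, although mouse 1 is also the female of each group. As a replicate block the numbers gave 11 genes for R47H minus KO, all 9 among them, and 83 for R47H minus CV, of which 70 were among the 86. Of the genes printed against CV, Lgals3 and Cldn11 lost the call under the block (adjusted p = 0.0544 and 0.0568). Over 194 checks of the 9 called genes 99 kept the call, 95 lost it and 0 turned direction.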

Other observations

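Because Nr1d1 and Hlf, both output genes of the circadian clock, were among the most negative differences, a list of 18 clock genes was looked up after those values were seen, so both genes are no evidence for the list. Of 16 tested members 0 were called (limma). Without Nr1d1 and Hlf, 1 of 14 lay lower and 1 higher at an unadjusted p under 0.05 (limma), against 2.15% and 3.53% of all genes. Of these 14 differences 9 were negative, against 5441 of 10795 over all genes, and the median was -0.19. Hlf read 6.12, 6.27 and 6.55 in KO and 5.70, 6.06 and 5.85 in R47H (-0.44 ± 0.14, limma adjusted p = 0.645). Cry1, a repressor of the clock, averaged 6.77 ± 0.43 in KO and 6.34 ± 0.31 in R47H (SD, n = 3 each), and Cry2 stood at -0.33 ± 0.14. Nfil3, a repressor that acts against Hlf and Dbp, was the member with a positive difference at that level, 0.39 ± 0.10 (adjusted p = 0.451). The core activators Arntl and Clock stood at 0.05 ± 0.11 and 0.01 ± 0.07. By mouse the list with both genes deviated by 0.28 in KO mouse 3 and by -0.23 in R47H mouse 1, with the other 4 mice between -0.06 and 0.03. The hour at which brains were taken is not in the labels, and its part in these values was not tested.

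Border macrophage markers gave 0 calls among 10 (limma). Of these, 3 had an unadjusted p under 0.05, all positive, against 3.53% of all genes for that direction. Cd163, a haemoglobin scavenger receptor of these macrophages, read the same value, 6.49, in all 3 KO mice and 6.78, 6.64 and 6.64 in R47H (0.19 ± 0.08, limma adjusted p = 0.863), and it was called higher in R47H than in CV (0.56 ± 0.08, adjusted p = 0.0235). Cd163 lost that call with the neutrophil score (0.59, limma adjusted p = 0.317). It kept the call in 4 of the 9 fits that left out 1 array. Cd209f, a lectin of the same cells, stood at 0.51 ± 0.20, and Mrc1, their mannose receptor, at 0.09 ± 0.17. Flt1, a receptor for vascular growth factors that is also on the endothelial list, read 5.92, 5.37 and 5.32 in KO and 6.88, 6.28 and 5.69 in R47H (0.74 ± 0.17, adjusted p = 0.271). The endothelial genes Pecam1 and Vwf stood at -0.28 ± 0.16 and -0.09 ± 0.08.

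A term for the R47H difference to depend on sex called 0 genes (limma; 418 of 10795 at an unadjusted p under 0.05), with 1 female per group.

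Exactly equal values across arrays were common in the deposited table. Of the 10795 tested probe sets 5670 (52.5%) held the same value, to every deposited decimal, in at least 2 of the 9 arrays. All 3 KO mice were equal for 133 of them, Cd163 and Tfeb, a lysosomal transcription factor, among them, and all 3 R47H mice for 112. For such genes the replicate spread is 0 and the SE rests on the other groups and on the spread shared across genes. How these ties arose was not tested.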
